A study of Mus musculus with 12 samples.

Results

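The long-chain acyl-CoA synthetases of the mouse are 5 genes, Acsl1, Acsl3, Acsl4, Acsl5 and Acsl6, taken by their symbols from the 32285 gene identifiers of a single-nucleus RNA sequencing series on adipose tissue. Each symbol matched 1 identifier. The family was selected on measured values of these libraries, namely that Acsl5 was the member with the highest ratio of cold over room temperature in mPRAT adipocytes and that Acsl3 was higher in cold in 3 depots. The cold ratios below are therefore descriptions.

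The series holds 12 libraries of sorted nuclei made with 10x 3′ chemistry, 1 per group, from male C57BL/6J mice on normal chow. The depots are labelled mPRAT, lPRAT, iBAT and iWAT, abbreviations commonly used for perirenal fat (m medial, l lateral), the brown fat between the shoulder blades and the white fat of the groin. At room temperature, 22 °C, the ages were 1, 2 and 6 months for mPRAT and for iBAT, 2 and 6 months for lPRAT, and 6 months for iWAT. Cold libraries came from mPRAT, iBAT and iWAT at 6 months after 3 days at 4 °C. The sample characteristics give 16 weeks for every 6-month library, against 4 and 8 weeks for the 1-month and 2-month libraries, so the age named 6 months is uncertain. The labels name no transgene or mutation for any group, and the number of animals behind a library is not stated there. With 1 library per group there is no spread between replicates, and no test between groups was run. Every interval below covers counting error only, and differences between animals, dissections and library preparations cannot be told apart from those of depot, age or cold.

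These enzymes join a free long-chain fatty acid to coenzyme A at the cost of ATP, the step that precedes its burning in mitochondria, its storage in triglyceride or its use in membranes. ACSL1 is known as the main isoform of fat and is needed for fatty acid oxidation in brown fat, ACSL5 is found on mitochondria and endoplasmic reticulum, and ACSL3 sits on endoplasmic reticulum and lipid droplets. ACSL4 prefers arachidonic and other polyunsaturated acids, and ACSL6 is best known from the brain. Brown adipocytes burn fatty acids through the uncoupling protein UCP1, and cold drives both the uptake and the synthesis of fatty acids in them.

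Sequences upstream of the transcription start are shown for Acsl5 and Acsl3, the members that were higher together in cold mPRAT and cold iBAT. They are the 250 bases before the RefSeq start on GRCm38.p6, both on the plus strand, at chr19:55253119-55253368 for Acsl5 and chr1:78657575-78657824 for Acsl3. In GENCODE the Acsl5 stretch lies inside the span of the gene, whose start is further upstream.
Acsl5: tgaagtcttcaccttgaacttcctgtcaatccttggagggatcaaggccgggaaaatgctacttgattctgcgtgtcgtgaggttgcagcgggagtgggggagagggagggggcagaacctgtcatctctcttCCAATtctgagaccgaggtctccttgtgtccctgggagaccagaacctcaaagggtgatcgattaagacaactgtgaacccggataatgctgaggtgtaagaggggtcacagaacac
Acsl3: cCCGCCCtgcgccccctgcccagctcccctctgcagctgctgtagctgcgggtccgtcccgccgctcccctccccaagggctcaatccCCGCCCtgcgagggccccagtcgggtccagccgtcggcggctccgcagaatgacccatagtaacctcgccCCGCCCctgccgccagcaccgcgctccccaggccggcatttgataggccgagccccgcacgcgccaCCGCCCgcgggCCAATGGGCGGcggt
Capitals mark matches, on either strand, to any of 5 motifs that were searched: the cAMP response element TGACGTCA, the nuclear receptor half-site AGGTCA, the E-box CACGTG, the CCAAT box CCAAT and the GC box GGGCGG. In Acsl3 the CCAAT box adjoins the last GC box. These motifs were present in 1.55%, 14.0%, 6.02%, 33.8% and 32.7% of the 32851 promoters of the table over the same length. The Acsl5 stretch held 1 CCAAT box and no other match, with a GC content of 52.8%. The Acsl3 stretch held 1 CCAAT box and 5 GC boxes, with a GC content of 75.6%, against a median of 52.4% over all promoters. The pair of promoters thus shared the CCAAT box only, and a match or its absence describes these letters alone.

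Acsl5 (ENSMUSG00000024981) lies at 55251938 to 55297720 of chromosome 19 on GRCm38, plus strand. Acsl3 (ENSMUSG00000032883) lies at 78657825 to 78707743 of chromosome 1, plus strand, Acsl1 (ENSMUSG00000018796) at 46471037 to 46536051 of chromosome 8, plus strand, and Acsl4 (ENSMUSG00000031278) at 142317993 to 142390535 of chromosome X, minus strand. Acsl6 (ENSMUSG00000020333) lies at 54303798 to 54364756 of chromosome 11, plus strand. Acsl3 overlaps Utp14b on the same strand, so their reads could be split between them in counting. Acsl5 overlaps Zdhhc6 on the other strand, and Acsl1 and Acsl6 overlap the antisense genes Gm45244 and Gm12224.

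Levels are given as CPM (counts per 1e6), the UMI count of a gene scaled to all UMIs of the adipocyte-like nuclei of a library, with exact Poisson 95% intervals where they help. The 6-month libraries of lPRAT, with 1937, and iBAT, with 15286, held the fewest and the most adipocyte-like nuclei, out of 96643 kept nuclei of all kinds. Their total ranged from 2477840 UMIs in lPRAT at 2 months to 69980265 UMIs in cold iBAT, so 3 counts, the limit that a count of 0 allows, were worth 1.21 CPM in the shallowest and 0.0429 CPM in the deepest. All 8 adipocyte markers were detected in these nuclei in each of the 12 libraries, and Plin1, which codes for the coat protein of lipid droplets, ranged from 724 to 1231 CPM. Cold mPRAT stood apart: 66.0% of its barcodes exceeded the mitochondrial limit of 10%, against 22.1% or less elsewhere. The 9 epithelial markers summed to 164 CPM in its adipocyte-like nuclei, with Upk1b at 75.0 CPM and Umod, Slc12a1 and Slc12a3 at 0, to 4.07 CPM in mPRAT at 6 months at room temperature and to 56.4 and 76.7 CPM at 1 and 2 months. A pair of libraries shared between 3 and 76 cell barcodes, at most 0.734% of the smaller library. In these bulk-like sums, fewer nuclei that express a gene and less RNA per nucleus cannot be told apart, except where gates or clusters are given.

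Acsl1, the main isoform of fat, held most of the family's UMIs in every library. In mPRAT it measured 2252 CPM at 1 month, 5046 CPM at 2 months, 4856 CPM at 6 months and 3854 CPM in cold. In iBAT it measured 2846, 4106 and 3948 CPM by age and 3718 CPM in cold. In lPRAT it measured 1415 and 1971 CPM at 2 and 6 months, and in iWAT 2506 CPM at room temperature and 4080.4 CPM in cold. The lPRAT libraries were thus the lowest and the 2 older mPRAT libraries at room temperature the highest, with a ratio of 3.57 between the ends. Of the 11 neighbouring pairs in the order of the libraries, 10 had intervals that did not overlap.

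Acsl5 spanned the widest range, from 16.5 CPM in lPRAT at 2 months to 1259 CPM in cold iBAT, a ratio of 76.1. In mPRAT it measured 33.4, 31.7 and 41.0 CPM at 1, 2 and 6 months and 529.9 CPM in cold (516 to 544). In iBAT it measured 64.8, 103 and 220.4 CPM by age and 1259 CPM in cold (1251 to 1267). In lPRAT it stayed at 16.5 and 18.1 CPM, and in iWAT at 18.1 CPM at room temperature and 19.97 CPM in cold (17.9 to 22.3). The cold mPRAT and cold iBAT libraries lay above all others, and all 4 lPRAT and iWAT libraries lay below all others. The intervals of those 4 neighbours overlapped one after the other.

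Acsl3, the lipid droplet isoform, measured 31.5, 31.7 and 36.8 CPM in mPRAT by age and 95.9 CPM in cold (90.1 to 102). In iBAT it measured 43.0, 52.9 and 55.5 CPM by age and 159.7 CPM in cold (157 to 163). In lPRAT it measured 29.9 CPM at 2 months and 15.5 CPM at 6 months, and in iWAT 17.3 CPM at room temperature and 59.4 CPM in cold (55.7 to 63.2). The 3 cold libraries were the 3 highest, although the interval of cold iWAT overlapped that of iBAT at 6 months at room temperature, 53.2 to 57.9 CPM. Of its 11 neighbouring pairs, 6 had overlapping intervals.

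Acsl4, the isoform of polyunsaturated acids, had a ratio of 3.49 between the highest and the lowest library, close to that of Acsl1. In mPRAT it measured 38.8, 59.6 and 67.5 CPM by age and 72.3 CPM in cold. In iBAT it measured 20.7, 29.9 and 38.9 CPM by age and 51.5 CPM in cold. In lPRAT it measured 50.04 and 71.4 CPM, and in iWAT 44.2 CPM at room temperature and 53.3 CPM in cold. Within each depot the older and the colder library had the higher level, although the intervals of mPRAT at 2 months, at 6 months and in cold overlapped one after the other. Intervals overlapped in 8 of its 11 neighbouring pairs.

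Acsl6, the brain isoform, had between 0 and 6 counts in the adipocyte-like nuclei of any library. Its highest level was 0.507 CPM, in mPRAT at 2 months, and it had 0 counts in cold mPRAT, in lPRAT at 2 months and in iWAT at room temperature, which allows up to 0.287, 1.21 and 0.0873 CPM. No ratio is given for it, and the counts and medians of members below cover the other 4 genes, which passed the minimum mean of 10 CPM in all 14 comparisons.

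**Figure D1:**
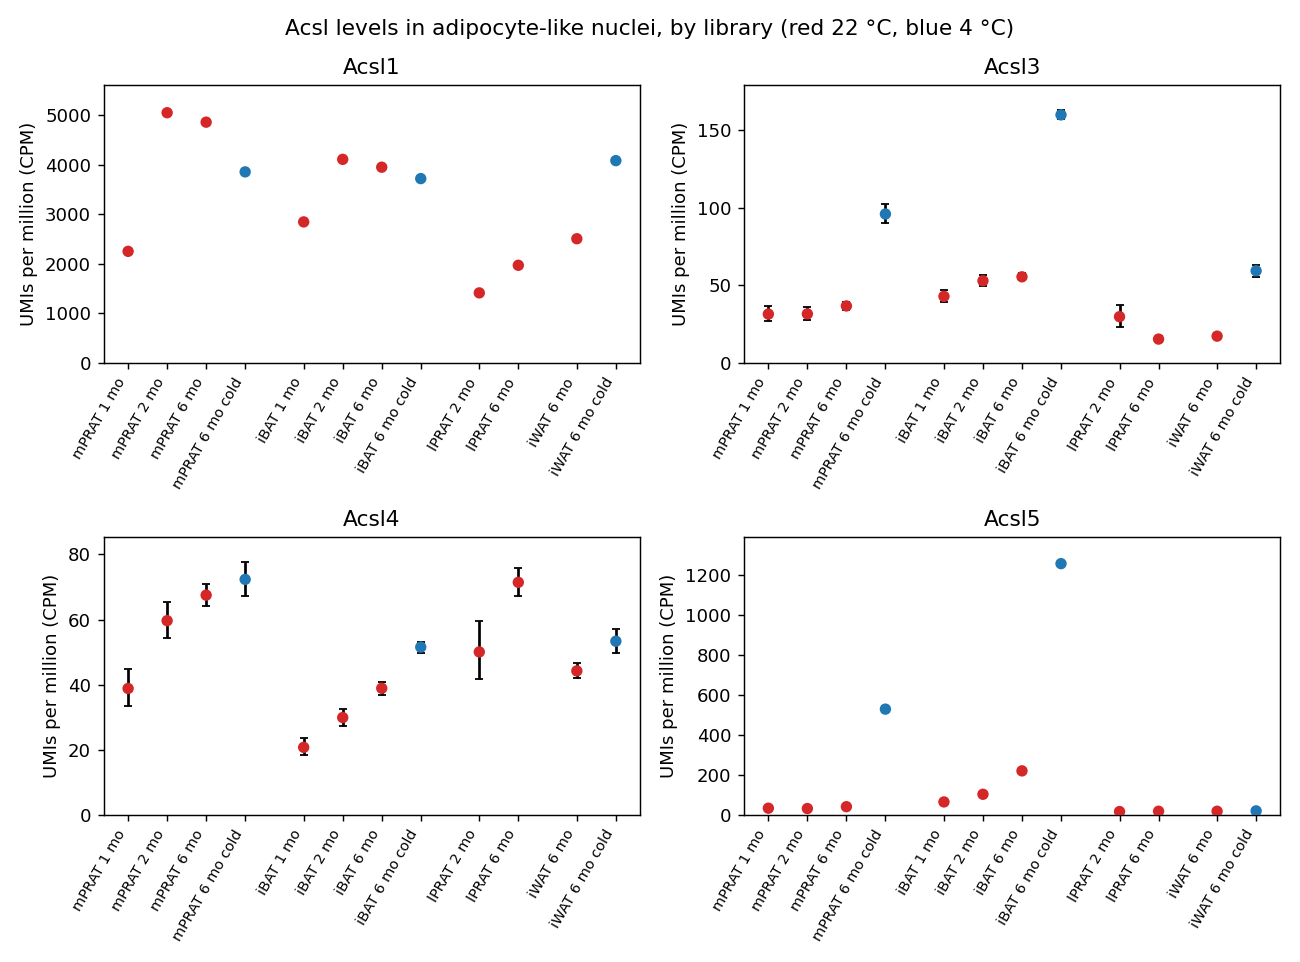
Level of 4 Acsl genes in the adipocyte-like nuclei of the 12 libraries, in CPM (linear axes from 0, a scale of its own for each gene); points are libraries, bars exact Poisson 95% intervals that cover counting error only, red is 22 °C and blue 4 °C. Acsl5 reached 529.9 CPM in cold mPRAT and 1259 CPM in cold iBAT and stayed at 19.97 CPM in cold iWAT, while Acsl3 was higher in cold in all 3 depots.

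The make-up of the family shows the same values as shares of its UMIs. Acsl1 took between 92.6% and 97.6% in each of the 9 room-temperature libraries and 96.8% in cold iWAT, but 84.7% in cold mPRAT (exact 95% interval 84.3 to 85.0) and 71.7% in cold iBAT (71.5 to 71.8). Acsl5 took 11.6% in cold mPRAT and 24.3% in cold iBAT, against 0.820% and 5.17% in the same depots at room temperature. In iWAT its share was 0.701% at room temperature and 0.474% in cold. Acsl4 took more than Acsl5 and Acsl3 in the 6 room-temperature libraries outside iBAT, with 1.15% to 1.71% in mPRAT and iWAT and with 3.31% and 3.44% in lPRAT. Divided by the length of each gene's span, Acsl1 held 64.5% of the family in cold iBAT and Acsl5 31.0%, and in cold mPRAT 80.4% and 15.7%. Per kilobase of span, Acsl5 thus stood second to Acsl1 in those libraries, and counts from 3′ ends may not scale with span.

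**Figure D2:**
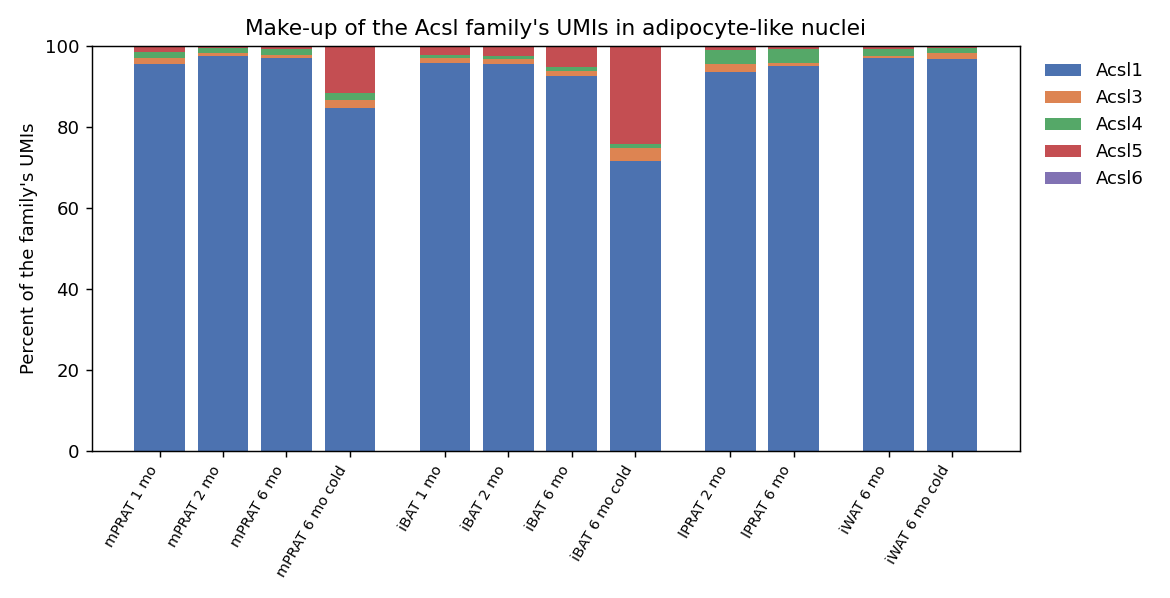
Percent of the Acsl family's UMIs held by each of the 5 genes in adipocyte-like nuclei, by library (stacked bars from 0 to 100). The Acsl5 part is 11.6% in cold mPRAT and 24.3% in cold iBAT and at most 5.17% in the other libraries, and Acsl6 is too small to be seen.

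Cold was compared with room temperature at 6 months to ask how the depots respond. A gene counts as called where the ratio of the CPM values is at least 2 or at most 0.5. In mPRAT 2 of the 4 members were called, both higher, beside 12% of 8434 genes. Acsl5 was higher by a ratio of 12.9 (12.1 to 13.8), ranked 44 among all genes by ratio, and Acsl3 by 2.61 (2.38 to 2.86). Acsl4 had a ratio of 1.07 (0.982 to 1.17) and Acsl1 a ratio of 0.794 (0.785 to 0.803). Without cluster 19, which held 85.6% of the adipocyte-like Acsl5 UMIs of cold mPRAT and is described below, 1 of 4 was called, beside 7.46% of 8380 genes. Acsl5 was then higher by a ratio of 3.81 (3.46 to 4.18), and Acsl3 had a ratio of 1.76 (1.54 to 1.99). Acsl4 was at 0.904 (0.798 to 1.02) and Acsl1 at 0.917 (0.904 to 0.9305). In iBAT 2 of 4 were called, both higher, beside 15% of 8209 genes. Acsl5 had a ratio of 5.71 (5.59 to 5.84), Acsl3 of 2.88 (2.75 to 3.01), Acsl4 of 1.33 (1.25 to 1.41) and Acsl1 of 0.942 (0.936 to 0.948), which became 1.14 under TMM scaling. In iWAT 1 of 4 was called, beside 8.54% of 7799 genes. Acsl3 had a ratio of 3.42 (3.09 to 3.80), Acsl1 of 1.63 (1.61 to 1.64), Acsl4 of 1.21 (1.11 to 1.31) and Acsl5 of 1.101 (0.961 to 1.26). The median of the 4 members on the log2 scale was 0.74 in mPRAT, 0.97 in iBAT and 0.49 in iWAT, against -0.017, -0.050 and -0.13 over all genes tested. Cold iWAT thus had more Acsl3 and an Acsl5 ratio whose interval spanned 1, while its Acsl1 ratio differed between clusters of nuclei, from 0.919 to 1.83, and cold mPRAT and cold iBAT had more Acsl5 and Acsl3.

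The genes that overlap the members were read beside them. Utp14b, on the strand of Acsl3, measured 10.7 CPM in mPRAT at 6 months and 36.9 CPM in cold, 20.9 and 52.9 CPM in iBAT and 6.23 and 17.4 CPM in iWAT, so it was also higher in cold in the 3 depots, and how reads were divided between both genes was not tested. Zdhhc6, opposite Acsl5, measured 43.2 and 52.7 CPM in mPRAT, 52.1 and 83.2 CPM in iBAT and 41.4 and 28.9 CPM in iWAT. The Acsl5 level in the epithelial-like nuclei of cold mPRAT was 74.8 CPM, below the 529.9 CPM of its adipocyte-like nuclei. With no mitochondrial limit the mPRAT ratios were 12.7 for Acsl5 and 2.57 for Acsl3. That setting changed the number of adipocyte-like nuclei of cold mPRAT only from 2136 to 2300, while 7353 barcodes exceeded the limit. Most of these barcodes thus stayed outside the class, and the ratios say little about them.

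The clusters that held the most adipocyte-like nuclei differed between cold and room temperature in each depot. Cluster 19 held 52.5% of them in cold mPRAT, and cluster 6, led by Cyp2e1, Olfr1033 and Slc7a10, held 25.2%. At room temperature cluster 0, led by Ntrk3, Tmem132b and Coq8a, held 34.2% in mPRAT and 78.3% in iBAT, and cluster 2, led by Gmpr, Ttc25 and Elovl3, held 96.9% in cold iBAT. In iWAT cluster 4, led by Mageb18, Gm4876 and Ptchd4, held 49.5% at room temperature and 18.1% in cold, and cluster 5, led by Gm31522, Trhde and Gm12811, 41.2% and 57.4%.

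The 10 leading genes of cluster 19 were Gstm1, S100a6, Sprr1a, Ugp2, Dgkg, Gm15179, Gk, Ppargc1a, Upk1a and Upk3a. Uroplakins such as Upk1a and Upk3a are known from the lining of the urinary tract, while Ppargc1a and Gk are induced by cold in brown adipocytes. None of the 8 adipocyte markers was among the 10, and its name rests on 5 markers found at 2-fold or more over other classes, Plin1, Cidec, Lipe, Acvr1c and Pde3b. Adipoq, Plin4 and Trhde were not found so, and in cold mPRAT measured 26.5, 266 and 4.13 CPM in cluster 19. They measured 207, 1184 and 437 CPM in cluster 6 and 15.7, 259 and 2.85 CPM in cluster 2. Epithelial was the next class in the naming of cluster 19, with 0 of its markers found. Of the nuclei of cluster 19, 95.7% came from cold mPRAT. In that library Upk1a measured 70.8 CPM in cluster 19 and 47.0, 78.0 and 54.99 CPM in clusters 2, 3 and 6, so it was present at similar levels in all 4. The 9 epithelial markers summed to 169 CPM in cluster 19 and to 118, 224 and 147 CPM in the others, with Umod, Slc12a1 and Slc12a3 at 0 in each. Ppargc1a measured 2297 CPM in cluster 19 and 2798, 690.3 and 238 CPM in the others. The part of these genes in the Acsl values was not tested.

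Levels were therefore also read cluster by cluster. In cold mPRAT Acsl5 measured 889 CPM in cluster 19, where Ucp1 was 1168 CPM, and 809.5 CPM in cluster 2, where Ucp1 was 1435 CPM. It measured 95.5 CPM in cluster 3 and 29.99 CPM in cluster 6, where Ucp1 was 267 and 19.3 CPM. Acsl5 thus was high in the pair of clusters of this library with most Ucp1 and low in the one with least. The clusters were formed from the genes of these same nuclei, without the members, so these levels are descriptions.

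Acsl3 differed less between these clusters, with 126, 131, 65.2 and 49.7 CPM in clusters 19, 2, 3 and 6 of cold mPRAT. Acsl1 was lower where these were high, with 3281 and 2937 CPM in clusters 19 and 2 and 4983 and 4719 CPM in clusters 3 and 6. Cluster 3, led by Dock9, Cfd and Cyp2e1, had at least 50 nuclei in both conditions of the 3 depots. Inside it the ratio of cold over room temperature of Acsl5 was 5.53 (4.15 to 7.37) in mPRAT, 4.92 (3.28 to 7.71) in iBAT and 1.20 (0.798 to 1.82) in iWAT. The Acsl3 ratio there was 1.48 (1.12 to 1.94), 4.20 (2.48 to 7.66) and 4.61 (3.28 to 6.63). For Acsl4 it was 0.679 (0.526 to 0.865), 2.16 (1.22 to 4.12) and 1.57 (1.13 to 2.19). In all 4 clusters that could be compared in iBAT the Acsl5 ratio was between 3.99 and 5.64, and in all 4 of iWAT between 0.376 and 1.20, with every iWAT interval spanning 1. The iBAT values rest on few nuclei on 1 side: 66, 124 and 51 cold nuclei in clusters 1, 3 and 5, and 112 room-temperature nuclei in cluster 2. In mPRAT only cluster 3 could be compared. The Acsl1 ratio in iWAT was 0.919 (0.893 to 0.946) in cluster 3, 1.15 (1.13 to 1.16) in cluster 5, 1.31 (1.20 to 1.43) in cluster 6 and 1.83 (1.80 to 1.87) in cluster 4. The level of Acsl1 at room temperature was lowest in cluster 4, with 1572 CPM, against 3789 CPM in cluster 5. Cluster 4 held 49.5% of the iWAT nuclei at room temperature and 18.1% in cold. The part of this cluster make-up in the value of 1.63 over all nuclei was not tested. In the 4 clusters of iWAT the Acsl3 ratio lay between 2.24 and 4.61, with 3 intervals above 1 and 1 that spanned it.

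**Figure D3:**
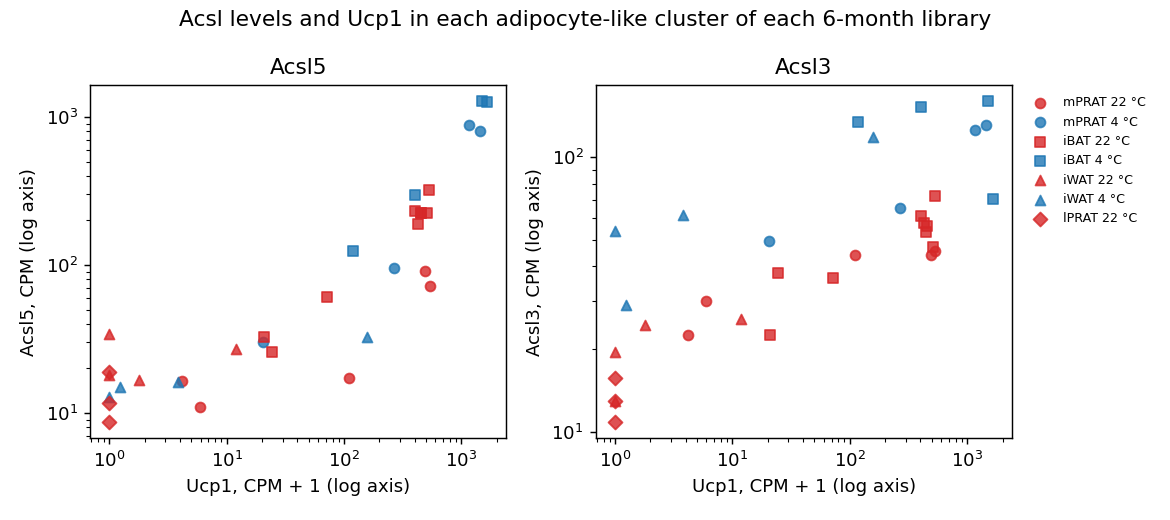
Acsl5 and Acsl3 in each adipocyte-like cluster with at least 50 nuclei of each 6-month library (CPM, log axes), plotted against Ucp1 in the same cluster (CPM + 1, log axis); shape is the depot, red 22 °C and blue 4 °C. In cold mPRAT Acsl5 goes from 29.99 CPM in cluster 6, with Ucp1 at 19.3 CPM, to 889 CPM in cluster 19, with Ucp1 at 1168 CPM, and the 4 cold iWAT clusters stay between 12.8 and 32.4 CPM.

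The adipocyte-like nuclei were next divided by Ucp1, after each nucleus was thinned to 1000 UMIs so that depth did not set the gate. Ucp1-positive nuclei, with at least 1 Ucp1 UMI, made up 14.5% of mPRAT at 6 months, 41.3% of cold mPRAT, 30.2% of iBAT at 6 months, 73.5% of cold iBAT and 2.72% of cold iWAT. Acsl5 was higher in Ucp1-positive than in Ucp1-zero nuclei in all 9 libraries with at least 50 nuclei of each, with ratios from 1.05 (1.04 to 1.07) in cold iBAT to 4.28 (2.78 to 6.36) in cold iWAT. At 6 months in mPRAT it measured 106 and 31.8 CPM in the 2 kinds, a ratio of 3.34 (2.91 to 3.83), and in cold 871 and 309.9 CPM, a ratio of 2.81 (2.66 to 2.97). With all UMIs in the gate the cold iBAT ratio was 2.35. In cold iWAT, where the whole depot gave 19.97 CPM, the 71 Ucp1-positive nuclei had 80.2 CPM, from 27 counts. Acsl3 was higher in the positive nuclei in 4 of the 9 libraries and its interval spanned 1 in 5. Acsl1 was higher in the positive nuclei in 6 of the 9, up to a ratio of 1.31 (1.25 to 1.37) in cold iWAT, and lower in 1, cold mPRAT, at 0.793 (0.777 to 0.809). Acsl4 was lower in the positive nuclei of mPRAT at 2 and 6 months, with ratios of 0.619 (0.439 to 0.853) and 0.556 (0.457 to 0.671), and of cold iBAT, 0.875 (0.814 to 0.940). It was higher in those of cold mPRAT, 1.27 (1.09 to 1.47), and of iBAT at 6 months, 1.16 (1.04 to 1.29).

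Cold was then compared within each kind of nucleus. In Ucp1-positive nuclei of mPRAT the ratio of Acsl5 was 8.21 (7.32 to 9.24), and in Ucp1-zero nuclei 9.76 (8.93 to 10.7). In iBAT the ratios were 5.05 and 5.87. These values rest on the gate. At 1000 UMIs a nucleus that expresses Ucp1 can lack a UMI of it, and free RNA can give 1 to a nucleus that does not, so the gate is a range and not a type. With all UMIs of a nucleus in the gate, the Acsl5 ratio in mPRAT was 9.42 (8.65 to 10.3) in the positive and 2.79 (2.37 to 3.28) in the zero nuclei, and in iBAT 5.38 (5.23 to 5.53) and 2.70 (2.47 to 2.95). The zero nuclei of cold mPRAT then had 62.6 CPM of Acsl5 and the positive nuclei 833 CPM, a ratio of 13.3 in place of 2.81. Acsl5 was thus higher in cold in both kinds under either gate, and which kind had the higher ratio turned with the gate. In the Ucp1-zero nuclei of iWAT the Acsl5 ratio was 1.03 (0.897 to 1.19), and 0.948 (0.819 to 1.096) with all UMIs. Acsl1 in mPRAT was lower in cold by a ratio of 0.552 (0.540 to 0.565) in the positive nuclei and of 0.897 (0.884 to 0.909) in the zero nuclei. Acsl4 had a ratio of 2.10 (1.70 to 2.61) in the positive nuclei of mPRAT and 0.922 (0.825 to 1.03) in the zero nuclei, which the value of 1.07 over both kinds did not show. With all UMIs in the gate these were 1.64 (1.43 to 1.89) and 0.810 (0.705 to 0.929) for Acsl4, and 0.607 (0.597 to 0.618) and 1.006 (0.990 to 1.02) for Acsl1.

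**Figure D4:**
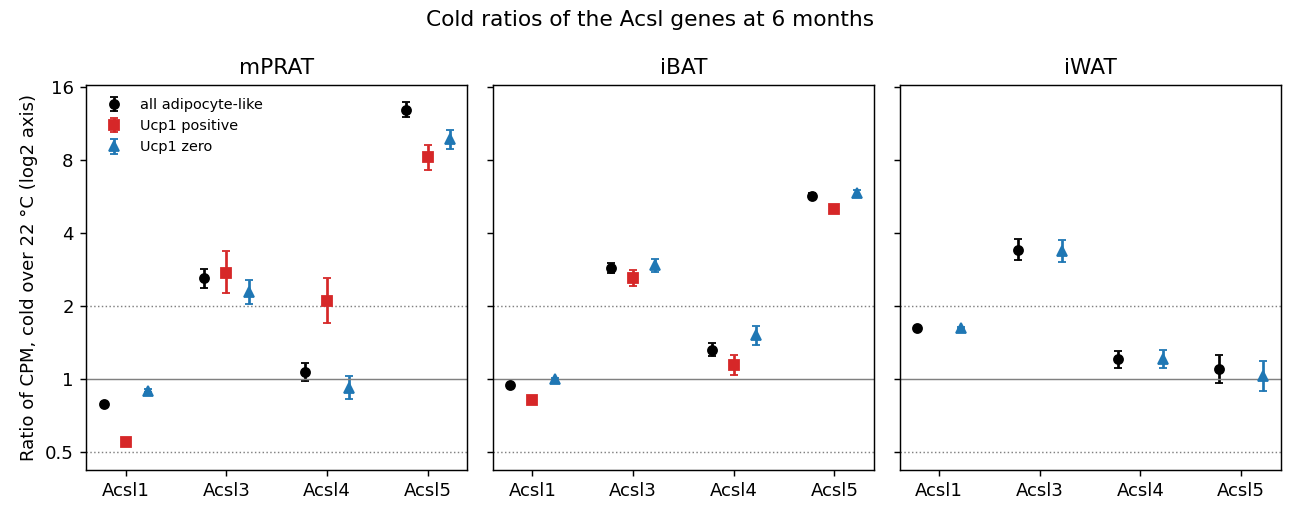
Ratio of CPM in cold over 22 °C at 6 months for 4 Acsl genes in mPRAT, iBAT and iWAT, in all adipocyte-like nuclei (circles), Ucp1-positive nuclei (squares) and Ucp1-zero nuclei (triangles); bars are exact 95% counting intervals, the axis is log2 and dotted lines mark 0.5 and 2. The gates use thinned UMIs. Acsl5 is at 8.21 and 9.76 in the gates of mPRAT, which become 9.42 and 2.79 with all UMIs, and at 1.03 in the Ucp1-zero nuclei of iWAT, where fewer than 50 positive nuclei at room temperature left no value for the positive gate.

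A second division used lipogenesis. Nuclei were positive with at least 2 UMIs of Acaca, Acly, Fasn and Elovl6 together after the same thinning, genes that make fatty acids from acetyl-CoA, and zero with none. In cold mPRAT 87.2% of the nuclei were positive, and Acsl5 measured 608 CPM in them and 40.6 CPM in the 100 zero nuclei, a ratio of 14.998 (9.90 to 24.0) that rests on 22 counts in the zero nuclei. Adipoq, Plin1 and Plin4 together measured 1633 CPM in the positive and 2892 CPM in the zero nuclei. The part of this difference between the nuclei in the Acsl5 ratio was not tested. Acsl3 had a ratio of 3.16 (1.99 to 5.36) and Acsl1 of 0.641 (0.618 to 0.666) between the same nuclei. At room temperature in mPRAT at 6 months the Acsl5 ratio was 2.91 (2.26 to 3.80), in iBAT at 1 month 2.81 (1.85 to 4.47) and in cold iWAT 2.48 (1.59 to 4.07). In the other 6 of the 10 libraries with a value, the interval spanned 1, although with all UMIs in the gate the ratio was 2.15 in mPRAT at 1 month and 2.76 in lPRAT at 6 months. Acsl3 was higher in the positive nuclei in 5 of the 10 libraries and its interval spanned 1 in 5. Acsl1 was also higher in 5 of the 10, up to a ratio of 1.44 (1.40 to 1.48) in lPRAT at 6 months, and lower in 2, cold mPRAT and iBAT at 2 months, the latter at 0.948 (0.925 to 0.971). The Acsl4 interval lay above 1 in 2, below it in 1 and spanned it in 7. The cold ratio of Acsl5 in mPRAT was 11.54 (10.7 to 12.4) within the lipogenic-positive and 2.24 (1.31 to 3.68) within the lipogenic-zero nuclei. In iWAT it was 1.30 (1.07 to 1.58) within the positive and 0.517 (0.314 to 0.808) within the zero nuclei, from 21 counts. These values depend on the gate. With all UMIs in it the positive nuclei of iWAT had a ratio of 1.14 (0.995 to 1.31), whose interval spanned 1, and those of mPRAT a ratio of 13.001 (12.1 to 13.9), and under 50 zero nuclei in a library left no value for them.

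The share of nuclei with a UMI describes how widely a gene was found. After thinning to 1000 UMIs, 31.0% of the adipocyte-like nuclei of cold mPRAT had an Acsl5 UMI, against 3.90% at room temperature, and 65.8% of those of cold iBAT, against 16.6%. Without thinning the shares were 54.5%, 14.4%, 96.3% and 29.3%. Macrophage-like nuclei, which may also express the gene, had 9.15% in cold mPRAT, 4.62% in mPRAT at room temperature, 14.98% in cold iBAT and 3.75% in iBAT at room temperature. The share at room temperature in mPRAT was therefore no higher than that of macrophage-like nuclei. In iWAT the adipocyte share was 1.74% at room temperature and 1.76% in cold, below the macrophage-like 4.36% and 3.51%. The median depth before thinning was 4409.5 UMIs in adipocyte-like and 1455.5 UMIs in macrophage-like nuclei of cold mPRAT and 6622.5 and 1926.5 UMIs in cold iBAT, and at room temperature 6168 and 1935 UMIs in mPRAT and 2154 and 810 UMIs in iBAT. Nuclei too shallow to thin numbered 80 and 54 in cold mPRAT, 55 and 39 in cold iBAT, 1 and 49 in mPRAT and 1921 and 135 in iBAT at room temperature. Acsl3 UMIs were found in 3.63% of the adipocyte-like nuclei of mPRAT at room temperature and 8.46% in cold, in 5.06% and 14.1% in iBAT and in 1.88% and 6.20% in iWAT. The macrophage-like shares were 8.82% and 5.63%, 10.0% and 4.86%, and 4.10% and 6.58%, so that the adipocyte share lay above them in cold mPRAT, within the macrophage-like interval of 2.46% to 10.8%, and in cold iBAT, and at or below them in the other 4 libraries.

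Age was compared at room temperature within each depot. From 1 to 2 months in mPRAT 1 of the 4 members was called, beside 3.86% of 8180 genes: Acsl1 was higher by a ratio of 2.24 (2.19 to 2.29), ranked 55 among all genes. Acsl4 had a ratio of 1.54 (1.30 to 1.83), and Acsl3 and Acsl5 had intervals that spanned 1. From 2 to 6 months in mPRAT 0 of 4 were called, beside 5.80% of 8158 genes, with ratios from 0.962 for Acsl1 to 1.30 for Acsl5. The Acsl1 value was 1.07 with the mean of nuclei. In iBAT from 1 to 2 months 0 of 4 were called, beside 3.20% of 8169 genes, although all 4 ratios lay above 1, between 1.23 for Acsl3 and 1.59 for Acsl5. From 2 to 6 months in iBAT 1 of 4 was called, beside 8.12% of 8189 genes. Acsl5 was higher there by a ratio of 2.14 (2.03 to 2.25), which was 1.95 and not called with the mean of nuclei. Its level in iBAT was thus higher at each later age. In lPRAT from 2 to 6 months 0 of 4 were called, beside 18.0% of 8438 genes. Acsl3 had a ratio of 0.518 (0.397 to 0.682), just short of the limit of 0.5, Acsl4 of 1.43 (1.18 to 1.73) and Acsl1 of 1.39 (1.34 to 1.44), and Acsl5 had an interval that spanned 1. Cluster 6 held 88.4% of the adipocyte-like nuclei of lPRAT at 2 months, and cluster 4 held 80.6% at 6 months. From 2 to 6 months Acsl3 went from 32.1 to 12.9 CPM in cluster 6 and from 17.6 to 15.6 CPM in cluster 4. Acsl1 went from 1350 to 2597 CPM in cluster 6 and from 1662 to 1891 CPM in cluster 4. The part of the cluster make-up in the lPRAT ratios was not tested. Depth per adipocyte-like nucleus moved with age, from a median of 1722 to 6168 UMIs in mPRAT and from 889 to 6592 UMIs in lPRAT, and its part in these ratios was not tested. In mPRAT the 6 kidney tubule markers summed to 41.0, 59.4 and 2.35 CPM in these nuclei at 1, 2 and 6 months. Their part in the mPRAT age ratios, of the members and of other genes, was not tested.

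Depots were compared at 6 months at room temperature. Between mPRAT and iBAT 1 of 4 members was called, beside 11.2% of 8289 genes: Acsl5 in mPRAT was at 0.186 of its iBAT level (0.174 to 0.199), while Acsl4 had a ratio of 1.74 and Acsl1 of 1.23. Between mPRAT and lPRAT 3 of 4 were called, all higher in mPRAT, beside 13.4% of 8443 genes, with ratios of 2.46 for Acsl1, 2.38 for Acsl3 and 2.27 for Acsl5. With 10 CPM added to each level 1 of 4 was called, Acsl1 at 2.46, with Acsl3 at 1.84 and Acsl5 at 1.82. Acsl4, at 0.945 (0.874 to 1.02), was the exception. Between mPRAT and iWAT 2 of 4 were called, Acsl5 at 2.26 and Acsl3 at 2.12, beside 13.2% of 8213 genes, and Acsl1 had a ratio of 1.94. Under TMM scaling 1 of 4 was called, with Acsl5 at 2.07 and Acsl3 at 1.94, and with 10 CPM added 0 of 4, with 1.81 and 1.71. Between iBAT and iWAT 2 of 4 were called, beside 26.4% of 8352 genes, with Acsl5 at 12.2 (11.2 to 13.2) and Acsl3 at 3.20 (2.92 to 3.51). Between lPRAT and iWAT 0 of 4 were called, beside 9.12% of 8257 genes, and the Acsl3 and Acsl5 intervals spanned 1. In cold, mPRAT against iBAT had 1 of 4 called, beside 9.19% of 8296 genes, with Acsl5 at 0.421 (0.410 to 0.432) and Acsl1 at 1.04, or 0.805 under TMM scaling. Without cluster 19 there were 2 of 4 called, beside 20.5% of 8384 genes, with Acsl5 at 0.124 (0.115 to 0.133) and Acsl3 at 0.404 (0.361 to 0.451). Acsl3 was also called under TMM scaling, at 0.467. At 6 months at room temperature the adipocyte-like nuclei of iBAT had 439 CPM of Ucp1 and those of mPRAT 201 CPM, against 0.757 CPM in iWAT and 2 counts in lPRAT. In these libraries mPRAT and iBAT had more Acsl5 and Acsl3 than iWAT and lPRAT, and Acsl4 did not follow that order. For Acsl3 the order was not clear elsewhere: at 2 months the intervals of mPRAT and lPRAT overlapped, and cold iWAT, with Ucp1 at 28.6 CPM, was above mPRAT at room temperature. Several of these comparisons use the same libraries and are not independent of each other.

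Other classes of nuclei showed where each isoform was found outside adipocytes. Adipocyte RNA in these nuclei was gauged by Adipoq, Plin1 and Plin4, whose summed level in each other class is given as a percent of that in adipocyte-like nuclei of the same library. The median level of Acsl1 was 3786 CPM in adipocyte-like nuclei and at most 694 CPM in any other named class, in Schwann-like nuclei. In adrenal cortex-like nuclei it was at 2.42% and 3.56% of the adipocyte level, below the adipocyte markers' 4.51% and 5.08%. The highest single value outside adipocytes, 2824 CPM in B-like nuclei of iBAT at 6 months, was 71.5% of the adipocyte level and stood beside an adipocyte marker level of 67.8%.

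Acsl4 was higher in several other classes than in adipocytes. It measured 476 CPM (423 to 534) in the adrenal cortex-like nuclei of mPRAT at room temperature and 633 CPM (571 to 700.0) in those of cold mPRAT, cells known to make steroid hormones. Macrophage-like nuclei had between 62.0 and 211 CPM, above the adipocyte level in all 11 libraries with at least 50 of them, and T or NK-like nuclei had between 93.6 and 162 CPM, above it in all 6. Mesothelial-like nuclei had between 122 and 231 CPM in 5 libraries, and epithelial-like nuclei between 102 and 128 CPM in 4. In all of these classes and libraries the level lay above that in adipocytes. As a percent of that in adipocytes it thus also lay above the percent of the adipocyte markers, which adds no separate information. In kidney tubule-like nuclei Acsl4 was lower than in adipocytes, with 27.5 and 36.6 CPM.

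Acsl3 had its highest level of any class in the skeletal muscle-like nuclei of iBAT at 2 months, 216 CPM (192 to 241), and Acsl6 its highest, 25.7 CPM (18.0 to 35.6), in the same nuclei. That level rests on 36 counts, against at most 6 in the adipocyte-like nuclei of any library. Acsl3 measured between 52.5 and 87.7 CPM in epithelial-like and between 22.0 and 86.7 CPM in macrophage-like nuclei. Acsl5 had a median of 56.9 CPM in blood endothelial-like and 75.3 CPM in epithelial-like nuclei, and 0 counts in both libraries with Schwann-like nuclei, which allows up to 40.5 and 35.8 CPM there. In mPRAT at 6 months at room temperature it measured 80.2 CPM in B-like and 77.4 CPM in T or NK-like nuclei. Adipocyte-like nuclei there had 41.0 CPM, and the adipocyte markers stood at 11.7% and 11.3% in those 2 classes. Progenitor (ASPC-like), adrenal cortex-like and mesothelial-like nuclei of that library lay below adipocytes, with 31.4, 21.3 and 13.5 CPM. In iWAT at room temperature T or NK-like nuclei had 62.0 CPM and adipocyte-like nuclei 18.1 CPM.

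The cold ratios in other classes could be read for Acsl5. In blood endothelial-like nuclei it measured 48.7 CPM at room temperature and 289 CPM in cold in mPRAT, a ratio of 5.92 (3.56 to 10.1), and 78.8 and 313 CPM in iBAT, a ratio of 3.96 (2.94 to 5.45). In macrophage-like nuclei the ratio was 6.09 (2.86 to 15.5) in iBAT but 1.22 (0.705 to 2.08) in mPRAT, and in T or NK-like nuclei 3.22 (1.15 to 11.1) in iBAT and 1.05 (0.447 to 2.09) in mPRAT. It was 3.09 (1.74 to 5.76) in mural-like nuclei of iBAT, and in ASPC-like nuclei, the stem and progenitor cells of fat, 2.77 (2.20 to 3.54) in iBAT and 1.98 (1.31 to 3.00) in mPRAT. Adipocyte markers in these nuclei stood at 24.1% and 25.2% of the adipocyte level in the endothelial-like nuclei of cold mPRAT and cold iBAT, 17.8% in the macrophage-like nuclei of cold iBAT, 22.7% and 7.60% in the ASPC-like nuclei of cold iBAT and cold mPRAT, and 19.4% and 17.5% in the T or NK-like and mural-like nuclei of cold iBAT. At room temperature they stood at 15.4% in the endothelial-like and 8.27% in the ASPC-like nuclei of mPRAT. In iBAT at room temperature they stood at 32.1% in endothelial-like, 20.9% in macrophage-like, 22.2% in ASPC-like, 52.9% in T or NK-like and 18.3% in mural-like nuclei. The marker share was thus higher in cold in the endothelial-like nuclei of mPRAT and lower in cold in those of iBAT and in its T or NK-like nuclei, and its part in the Acsl5 ratios was not tested. Against the adipocyte Acsl5 of the same libraries, the cold iBAT levels were 24.8% in endothelial-like, 14.1% in macrophage-like and 14.99% in ASPC-like nuclei, at or below the marker share. In cold mPRAT the endothelial-like level was 54.5% of the adipocyte level and the ASPC-like level 11.8%, above it. The marker share is taken over all adipocyte-like nuclei, which differ in this library. Cluster 19 had 266 CPM of Plin4 and 889 CPM of Acsl5, and cluster 6 had 1184 and 29.99 CPM. Levels above the share in cold mPRAT therefore cannot be told apart from adipocyte RNA of cluster 19. In epithelial-like nuclei of mPRAT the ratio was 0.987 (0.704 to 1.40), in adrenal cortex-like nuclei 1.73 (0.835 to 3.74) and in mesothelial-like nuclei 1.52 (0.360 to 7.31), so in mPRAT the interval left 1 in endothelial-like and ASPC-like nuclei alone among the classes with a value. In the 5 classes with a value in iWAT, no interval of the Acsl5 ratio left 1.

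**Figure D5:**
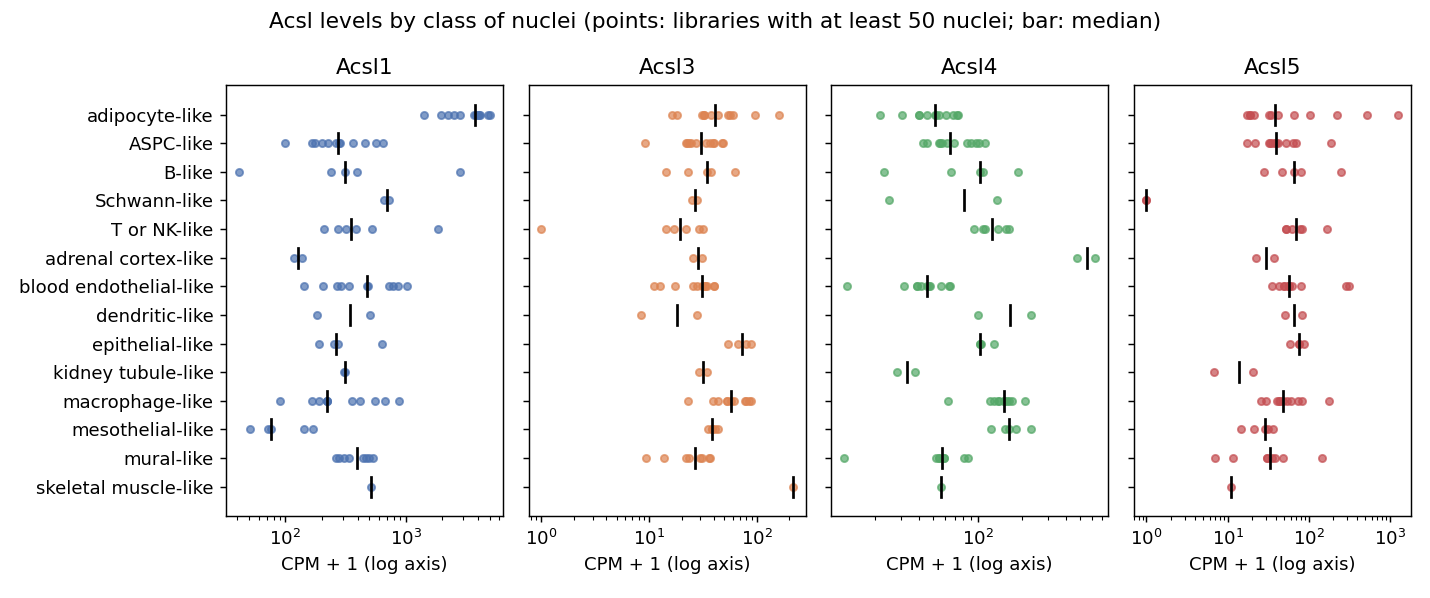
Level of 4 Acsl genes in each named class of nuclei (CPM + 1, log axes); each point is 1 library with at least 50 nuclei of the class, and the bar is the median. Acsl1 is highest in adipocyte-like nuclei, Acsl4 in adrenal cortex-like nuclei with 476 and 633 CPM, and Acsl3 in the skeletal muscle-like nuclei of 1 library with 216 CPM.

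Genes that act beside the synthetases were read in 7 lists, and a gene enters a list's count where its mean in the comparison was at least 10 CPM. A gene below that level in 1 library can thus enter through the other library alone, which raises the chance that it is called. The same holds for the shares over all genes. The lists were drawn up with earlier results of these data known. Among 8 genes of fatty acid synthesis, 6 were called higher in cold mPRAT, 3 in cold iBAT and all 8 in cold iWAT, with 0 lower. Of all genes tested 12%, 15% and 8.54% were called in these comparisons, in either direction. The medians were 1.21, 0.78 and 2.89 on the log2 scale, against -0.017, -0.050 and -0.13 over all genes tested. The desaturase Scd2 had ratios of 5.22, 4.65 and 10.6 in the 3 depots, the elongase Elovl6 of 4.88 in mPRAT and Me1, which makes NADPH, of 2.83 in iBAT. In iWAT Scd2 measured 1.78 CPM at room temperature and 18.9 CPM in cold, so it entered the count there through the cold library alone. Acly, which makes cytosolic acetyl-CoA from citrate, was higher by a ratio of 10.0 in iWAT. Without cluster 19, 6 of 8 were called in mPRAT, beside 7.46% of all genes, of which 5 were called with it (Acly, Fasn, Scd2, Elovl6 and Me1), while Acacb was no longer called and Scd1 was added. Genes of fatty acid synthesis were thus higher in cold in iWAT, where the Acsl5 interval spanned 1.

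The counts of the other lists are read beside the same 12%, 15% and 8.54% of all genes called. Their medians in mPRAT, iBAT and iWAT on the log2 scale were 0.66, -0.011 and 0.34 for other acyl-CoA synthetases, 0.82, 0.98 and 0.19 for thioesterases, -0.20, -0.21 and -0.036 for acyl-CoA binding and 0.59, 0.33 and 0.39 for mitochondrial entry and oxidation. They were 0.43, 0.41 and 0.62 for glycerolipid acylation and 0.62, 0.71 and 0.43 for uptake and carriage. Of the 14 other acyl-CoA synthetases, 2 of 10 tested were higher in cold mPRAT, Acss2 by a ratio of 2.39 and Acsf2 by 2.17, 0 of 9 were called in iBAT and 2 of 8 were higher in iWAT. There Acss2, which activates acetate, had a ratio of 6.64 and Slc27a1, a transport protein with synthetase activity, of 2.27. Thioesterases, which undo the reaction of the Acsl enzymes, were higher in 2 of 7, 4 of 8 and 2 of 7 tested genes in mPRAT, iBAT and iWAT, with 0 lower. Acot11, known to be induced by cold in brown fat, had ratios of 4.39 in mPRAT and 10.5 in iWAT, and Acot12 of 12.3 in iBAT, from 5.17 to 63.7 CPM. In iWAT Acot11 went from 2.39 to 25.0 CPM and Acot4 from 6.03 to 27.9 CPM. Acot11 and Acot4 in iWAT and Acot12 in iBAT passed the mean of 10 CPM through the cold library alone. The thioesterase counts of iWAT and iBAT thus partly follow from the filter. None of the 5 acyl-CoA binding genes tested was called in cold in any of the 3 depots. Without cluster 19 the called genes in mPRAT were partly others, named here after their values were seen, and the share of all genes called was 7.46%. Of the other synthetases 3 of 10 were called, Acss2, Slc27a1 and Acsm3, and Acsf2 was not. Of the thioesterases 1 of 7 was called, Acot4, and Acot11 was not.

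Genes of mitochondrial entry and oxidation were called higher in 3 of 9, 2 of 9 and 2 of 8 tested genes in cold mPRAT, iBAT and iWAT, with 0 lower, beside 12%, 15% and 8.54% of all genes. Without cluster 19 the mPRAT count was 0 of 9, beside 7.46% of all genes, and the list's median -0.13 on the log2 scale in place of 0.59. With all clusters, the carnitine carrier Slc25a20 was among the called genes in each depot, with ratios of 2.23, 2.06 and 2.18. Cpt1b had a ratio of 12.03 in iWAT, from 3.14 to 37.8 CPM, and Cpt1a one of 4.81 in iBAT, from 4.41 to 21.2 CPM. These values of Cpt1b and Cpt1a passed the mean of 10 CPM through the cold library alone. In glycerolipid acylation 1 of 8, 1 of 8 and 2 of 8 were called, a share close to that of all genes in mPRAT and iBAT, with Gpam higher by 2.84 in mPRAT and 2.93 in iWAT and Gpat3 lower in iBAT at 0.404. In uptake and carriage 2 of 5, 2 of 4 and 1 of 3 were higher, with Fabp3, a fatty acid carrier of oxidative tissue, at 4.03 in mPRAT and Lpl, which frees fatty acids from lipoproteins, at 2.88 in iBAT and 3.64 in iWAT. Without cluster 19 the mPRAT count was 1 of 5, beside 7.46% of all genes, with Fabp3 not called.

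By age, from 2 to 6 months, 4 of 8 genes of fatty acid synthesis were higher in iBAT, with Acaca at 3.50 and Fasn at 3.34, and 4 of 8 were lower in lPRAT, with Acly at 0.235 and Fasn at 0.239, beside 8.12% and 18.0% of all genes called. In the same lPRAT comparison 4 of 6 thioesterases were higher, with Acot4 at 3.03, from 7.67 to 23.2 CPM, and Acot8 at 2.91, from 5.25 to 15.3 CPM. Acot4 and Acot8 passed the mean of 10 CPM only through the 6-month library, so this count partly follows from the filter. Acsf2 was lower in mPRAT, where 5.80% of all genes were called, in iBAT and in lPRAT, at 0.464, 0.474 and 0.248. Between depots, 7 of the 8 genes of fatty acid synthesis were higher in mPRAT than in iWAT and in iBAT than in iWAT, with Elovl6 at 17.3 and 49.7, beside 13.2% and 26.4% of all genes called. Of the 9 genes of mitochondrial entry and oxidation, 7 were higher in mPRAT than in lPRAT, led by Cpt1b at 48.3, and 7 in iBAT than in iWAT, led by Cpt1b at 139, while Cpt1a was lower there at 0.171. The shares of all genes called in this pair of comparisons were 13.4% and 26.4%. Cpt1b measured 4.74 CPM in lPRAT and 3.14 CPM in iWAT, and Acadvl 6.93 CPM in iWAT. Scd2, of the synthesis list, measured 1.78 CPM in iWAT, and Cpt1a 4.41 CPM in iBAT. In these comparisons they passed the mean of 10 CPM through the other depot alone, so the depot counts partly follow from the filter.

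Genes whose levels ran most like those of each member over the 12 libraries were taken by Pearson's r of log2(CPM + 10) among 6433 genes with a mean of at least 20 CPM. These correlations share depth, depot and cold and are given with no test. For Acsl5 they were Ptdss2, Gmpr and Fhdc1, each with r of 0.98. Ptdss2, which makes phosphatidylserine, ranged from 14.3 to 93.8 CPM. For Acsl3 they were Letm1, Adcy10 and Snrk, with r of 0.95, 0.95 and 0.94. For Acsl4 they were Sod1, Cept1 and Ehhadh, with 0.96, 0.94 and 0.90, and for Acsl1 Slc22a23, Srfbp1 and Dnajc15, with 0.92, 0.88 and 0.88. Among the members themselves, Acsl3 and Acsl5 had r of 0.89, and Acsl4 had -0.0092 with Acsl3 and 0.0028 with Acsl5. Against Ucp1, r was 0.81 for Acsl5, 0.78 for Acsl3, 0.70 for Acsl1 and -0.21 for Acsl4.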

How the data were processed

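Raw UMI counts of single nuclei were deposited for 12 libraries, made by the authors with Cell Ranger 7.0.0, per the file headers, on mm10, per the submitters' processing notes. The annotation, intron counting and barcode filter are not given in the sources used here. The members and gene lists were chosen with earlier results of these data known. Symbols came from the files, and 32235 of 32285 identifiers were found in GENCODE M21, which gave the positions.

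The filters left 96643 of 119035 barcodes. They asked for 500 UMIs, 300 genes and a mitochondrial share within 10%, and followed removal of the highest scrublet doublet scores at 0.8% per 1000 nuclei, since scrublet's own threshold marked almost none in several libraries. Nuclei were clustered (scanpy 1.11.5, leidenalg 0.10.2, 2000 variable genes without members, listed or gate genes, 30 components, 15 neighbours, resolution 1). Clusters were named from listed markers, at least 3 of them at 20 CPM and 2-fold. The margin over the next class was raised after the clusters were seen. Levels are CPM of summed counts with exact Poisson 95% intervals, and ratios carry exact conditional binomial intervals (scipy 1.17.1), which cover counting error only. A gene was tested at a mean of at least 10 CPM over both libraries and called past 2-fold. Named genes were the members, at most the 2 highest and 2 lowest called genes of a list per comparison, and the 3 most correlated genes of each member. Gates used nuclei thinned to 1000 UMIs and left the gate genes out of the total. Cold ratios within gates (also gated on all UMIs), clusters and other classes, shares of nuclei with a UMI, overlapping genes and values without cluster 19 were added after the data were seen. TMM factors came from edgeR 4.0.16, used for scaling only. The scripts were tested on simulated data. Promoters came from RefSeq (GRCm38.p6).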

Additional observations from a re-analysis of the deposited data

Results flagged for a closer look

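The Acsl1 ratio of cold over room temperature lay on different sides of 1 between depots, with counting intervals off 1 in each. It was 1.63 in iWAT, 0.794 in mPRAT and 0.942 in iBAT, and the iBAT value was 1.14 under TMM scaling. The Acsl1 ratio of 6 over 2 months was 1.39 in lPRAT, 0.962 in mPRAT and 0.962 in iBAT, and the mPRAT value was 1.07 with the mean of nuclei. The Acsl3 ratio of 6 over 2 months was 1.16 in mPRAT and 0.518 in lPRAT. The age ratios pool nuclei whose clusters differed between the ages. In lPRAT cluster 6 held 88.4% at 2 months and cluster 4 held 80.6% at 6 months. In mPRAT cluster 3 held 63.0% and then 27.5%, and in iBAT cluster 0 held 17.7% and then 78.3%. Each value compares 1 library with 1 library, so the differences between depots were not tested.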

How the results depend on the processing

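No paired analysis was possible because the groups compared share 1 replicate number only, and with 1 library per group no replicate could be left out. A fit of depot and temperature over the 6 libraries at 6 months, which takes depots as replicates, was not run, since the members were chosen on those cold ratios. Of the 56 ratios of the 4 members in 14 comparisons, 53 kept their side of 1 under TMM scaling, 54 with the mean of nuclei, 54 with at least 1000 genes, 55 with doublets kept, 55 with the marker gate, 55 with no mitochondrial limit and 56 with 10 CPM added. Under these settings 0 ratios moved by over 1.5 times. Judged by the counting interval of the original ratio, 71 values left it and 321 stayed within it. Under TMM scaling 24 of the 56 left it. With no mitochondrial limit cold mPRAT had 2300 adipocyte-like nuclei in place of 2136, so that setting could change its values little. The number of members past 2-fold changed from 1 to 0 in iBAT 6 over 2 months with the mean of nuclei, from 3 to 1 in mPRAT over lPRAT with 10 CPM added, from 2 to 1 under TMM scaling and to 0 with 10 CPM added in mPRAT over iWAT, and from 1 to 2 in mPRAT over iBAT in cold under TMM scaling. Without cluster 19, an alternative added after seeing the data, it changed from 2 to 1 in mPRAT in cold and from 1 to 2 in mPRAT over iBAT in cold, and the percent of genes called from 12% to 7.46% and from 9.19% to 20.5%. The Acsl5 ratio then went from 12.9 to 3.81 in mPRAT in cold and from 0.421 to 0.124 in mPRAT over iBAT in cold. The cause was not tested, except that adding 10 CPM by its construction pulls ratios of low levels toward 1. TMM moved the median log2 ratio of all genes by 0.18 in mPRAT 2 over 1 months, 0.27 in iBAT in cold, -0.11 in mPRAT over iBAT, -0.12 in mPRAT over iWAT, -0.14 in lPRAT over iWAT and -0.36 in mPRAT over iBAT in cold. The percent of genes called in cold mPRAT, 12%, was 6.70% with 10 CPM added and 23.7% with a filter of at least 20 UMIs; in cold iBAT 8.78% and 28.4%; in cold iWAT 5.05% and 18.7%. Of 64 ratios between gated nuclei, 21 left their counting interval when the gate used all UMIs. Depth limits the small classes of nuclei and, in the shallower libraries, Acsl6. The upper end of its interval was 1.49 CPM in lPRAT at 2 months and 0.0796 CPM in cold iBAT.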
